A study of Mus musculus with 42 samples.

Results

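The cytosolic ribosomal protein genes encode the proteins of the large and small subunits of the ribosome that translates nuclear-encoded mRNAs. Their members were chosen by a rule on gene symbols. The rule uses no measured value, but it was set with earlier results of these data known. A gene belonged when its symbol began with Rpl or Rps followed by a digit or p, apart from pseudogene symbols that contain -ps, the Rps6k kinases and Rps19bp. This gave 92 genes of the 18825 in the first count table and 19866 in the second, the same 92 in both. They comprised 55 genes of the large subunit and 37 of the small subunit. Of these, 76 are the standard single-copy ribosomal proteins (the core genes) and 16 are paralogs or near copies, such as Rps27l, Rpl10l, Rpl39l, Rpl7l1 and Rps27rt. All 92 passed the filter on low counts in both experiments.

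RNA was measured in 42 libraries of mouse embryonic stem cells, in 14 groups of 3, as input from the lysate and as the fraction held by anti-HA beads (IP). All groups share a 129S6/SvEvTac background with the GFP_5xT71BS reporter and stably transfected FLAG-Cas9::T2A::Blasticidin, and the untagged control carries nothing more. Tagged cells carry HA-AVI-Tnrc6a, an epitope-tagged form of Tnrc6a, and 2 further genotypes add Trim71-/- (labelled Trim71KO) or Ago2-/- (Ago2KO) to the tag. Untagged, tagged and Trim71KO cells were studied in experiments 1 and 2, and Ago2KO cells in experiment 2. The labels do not say whether replicates were separate cultures, so p-values measure the spread between these libraries, which may be technical.

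Ribosomal protein mRNAs are short, abundant and efficiently translated, and many begin with a run of pyrimidines at the 5′ end, the terminal oligopyrimidine (TOP) tract, through which growth signals control their translation. Tnrc6a is a GW182-family scaffold that Argonaute proteins, guided by microRNAs, bring to mRNAs whose translation and stability they lower. Ago2 is such an Argonaute protein, and Trim71 is a TRIM-NHL protein that binds mRNAs in stem cells. The IP comparisons ask which mRNAs associate with tagged Tnrc6a and which associations depend on Trim71 or Ago2.

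The start of several members is shown because many members have a run of pyrimidines there while others lack one, and because it shows which copies reads can hardly tell apart. The sequences are from RefSeq (GRCm38.p6), 5′ to 3′ on the gene's strand, each with 10 bases before the annotated start and 20 from it. In the first 4, capitals mark the longest run of C or T.
Rps6: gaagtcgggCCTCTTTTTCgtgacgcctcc
Rpl35: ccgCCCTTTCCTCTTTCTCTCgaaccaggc
Rplp2: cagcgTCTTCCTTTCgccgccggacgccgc
Rpl7l1: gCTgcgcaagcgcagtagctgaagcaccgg
In the next pair, capitals mark the 19 bases in this window that both genes share.
Rps27: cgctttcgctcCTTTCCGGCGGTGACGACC
Rps27rt: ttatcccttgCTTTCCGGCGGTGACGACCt
These windows lie at chr4:86857348-86857377 (Rps6), chr2:39005112-39005141 (Rpl35), chr7:141447641-141447670 (Rplp2), chr17:46782637-46782666 (Rpl7l1), chr3:90213629-90213658 (Rps27) and chr9:114982720-114982749 (Rps27rt). Rplp2 is on the plus strand and the other 5 are on the minus strand. A start was listed for 67 of the 92 members. A run of at least 7 bases of C or T on the gene's strand lay in this 30-base window for 35 of them (52.2%), against 20.5% of the 27025 genes in the table. It was present in 11 of 73 respiratory chain genes and 9 of 69 mitochondrial ribosome genes. The run is a description of these letters, not a mapped TOP tract.

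Rps27 and Rps27rt shared a run of 38 of the 50 bases listed after the start, from base 2 of Rps27 and base 1 of Rps27rt. The longest run that Rps27 shared with its other paralog Rps27l was 5 bases. Rps27 spans chr3:90212667-90213648. The retrocopy Rps27rt spans chr9:114982366-114982739 within the span of Osbpl10. How the counting assigned reads that fit both is not given in the sources used here, so values of Rps27rt are uncertain, and counts of both genes were also summed. Similar caution holds for the 42 members with a pseudogene row of their own name and for the 21 whose span overlaps another coding or long noncoding gene. A further limit is that 29 members hold small RNA genes within their span. RefSeq annotates 5 members as pseudogenes, namely Rpl6l, Rps12l1, Rps3a2, Rps3a3 and Rps4l.

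The cells expressed the markers of their label. The summed level of 8 embryonic stem cell markers (among them Pou5f1, Nanog and Sox2) ran from 6746 to 9201 CPM (counts scaled to a library of 1000000) in input libraries. Summed primitive endoderm markers (6 genes) ran from 7.99 to 78.1 CPM. Mesoderm markers (2 genes in experiment 1 and 3 in experiment 2) ran from 4.67 to 15.5. Neuroectoderm markers (3 genes in experiment 1 and 4 in experiment 2) ran from 13.2 to 34.0, and fibroblast markers (only 2 genes) from 23.3 to 70.6 CPM. No measured marker was at 0 in a whole group. Libraries of experiment 1 held 12587257 to 23657840 counts, and those of experiment 2 held 16296447 to 21026552. Ago2 RNA was lower in Ago2KO than in tagged input (log2 change -1.12, SE 0.10, edgeR adjusted p = 2.52e-08). Trim71 RNA was higher in Trim71KO than in tagged input (0.23 in experiment 1 and 0.42 in experiment 2, edgeR adjusted p = 0.0437 and 0.000411). Gene-level RNA therefore does not check that label, and Trim71KO names these libraries by their label throughout.

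In input RNA the members were among the most abundant genes per length. The median level in untagged input was 360 CPM per kb of the authors' gene length in experiment 1 and 375 in experiment 2, against 3.82 and 3.79 over all genes tested. Of the 92 members, 88 lay above the 90th percentile of all genes in experiment 1 and 89 in experiment 2. Rplp1, which encodes an acidic protein of the P-stalk where elongation factors bind, was highest in both experiments at 2051 ± 85.8 and 1702 ± 127 CPM per kb (SD, n = 3). Rpl4 (1333 ± 3.30 and 1514 ± 46.9) and Rpl8 (1299 ± 20.7 and 1404 ± 108), both large-subunit proteins, came next, and these 2 overlapped within their spread in experiment 2. The lowest were the paralogs Rps23rg1 (21.4 ± 1.29 and 23.4 ± 1.46), Rpl32l (5.16 ± 1.47 and 4.79 ± 0.717) and Rpl3l (0.749 ± 0.210 and 1.13 ± 0.223 CPM per kb), the last known as a paralog of striated muscle. The lengths in the tables run from 374 to 6270 bases and are those of gene models, which may exceed the mature mRNA.

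The members together took 6.25% to 8.54% of all counts in input libraries. In IP libraries of untagged cells this share was 5.94%, 5.21% and 5.91% in experiment 1 and 6.84%, 7.37% and 7.33% in experiment 2. In IP libraries of tagged cells it was 2.73%, 3.18% and 2.60% in experiment 1 and 4.36%, 5.09% and 5.16% in experiment 2. The tagged IP libraries lay below every input and untagged IP library of their experiment. Trim71KO IP libraries held 2.24%, 3.25% and 3.94% in experiment 1 and 4.50%, 4.44% and 4.11% in experiment 2. Ago2KO IP libraries held 4.89%, 5.38% and 5.70%. A share depends on everything else in a library, so a lower share cannot be told apart from more of other RNAs. Tagged input of experiment 1 spread widely, at 6.37%, 8.54% and 7.36%, with replicate 2 the highest of all input libraries.

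**Figure D1:**
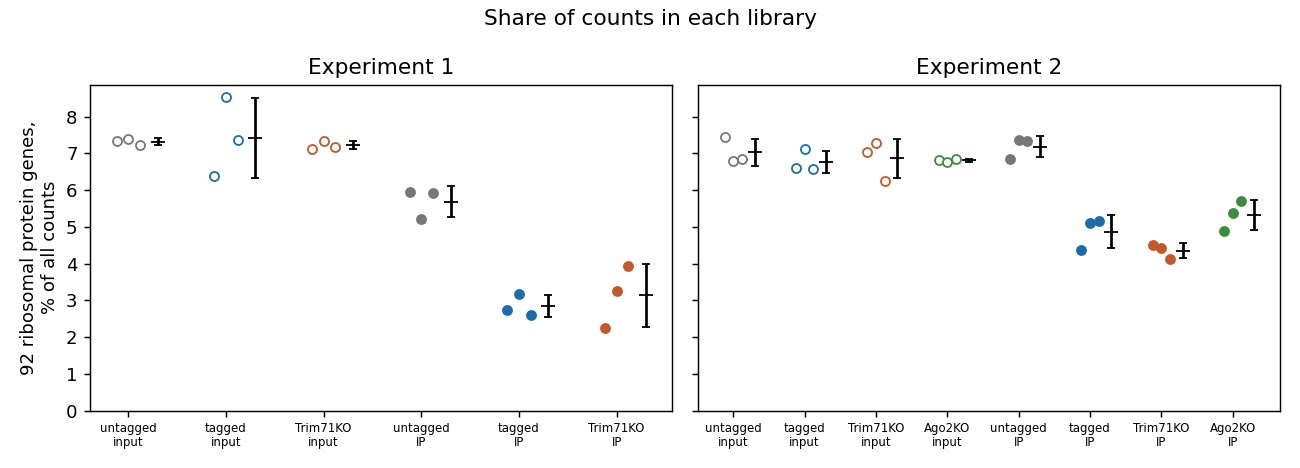
Share of all counts taken by the 92 ribosomal protein genes (y axis, percent) in each library, by group (x axis), with open points for input, filled points for IP, and the mean and SD of 3 libraries in black. IP libraries of cells with the tag sit between 2.24% and 5.70%, and input libraries between 6.25% and 8.54%.

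Without the tag, the scaled level of the members in IP was near that in input. These ratios are relative to the other RNAs of a library and do not give the amount of RNA recovered. In untagged cells of experiment 1 the median log2 ratio of IP to input was -0.03 over the 92 members, equal to the -0.03 over all genes, and 4 members were called against a background of 12.1% of all genes (7.21% higher and 4.9% lower). Called means an adjusted p under 0.05 over all genes. Rps27l, a p53-responsive paralog of Rps27, rose by 0.58 (SE 0.12), Rpl4 by 0.55 (SE 0.13) and the small-subunit protein gene Rps3 by 0.55 (SE 0.13), while the large-subunit gene Rpl29 fell by 0.30 (SE 0.09). This picture depends on scaling. With library size alone the median was -0.42, as it was for all genes, and 59 members were called, all lower, while a fit of these groups alone called 41. In experiment 2 the median was 0.11, with 90 of 92 ratios above 0 and 0 members called by edgeR (background 0.728%, 0.45% higher). At an unadjusted p under 0.05 there were 27, and DESeq2 called 4. The shares of all genes above 0 and at that unadjusted p are not given here, so those counts stand without a background.

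With the tag, most members were lower in IP. In tagged cells of experiment 1, 87 members were called lower and 3 higher in IP than in input (background 66.2%, 33.7% lower), with a median log2 ratio of -1.20 against -0.09 for all genes. The 3 lowest by the naming rule, which asks for calls, a mean log2 CPM of 2 and no overlap between groups, were Rpl41 (-1.63), Rps29 (-1.58) and Rps21 (-1.54). Rpl41 encodes the shortest ribosomal protein, and Rps29 and Rps21 encode small proteins of the small subunit. In experiment 2, 60 members were lower and 4 higher (background 38.6%, 15.4% lower and 23.2% higher), with a median of -0.24 against -0.04. Rps4x (-0.44), Rpl22l1 (-0.42) and Rps29 (-0.41) were lowest. The members called higher were Rps27 (1.16), Rps27rt (1.13), Rpl7l1 (0.54) and Rpl3 (0.25), and Rpl3 turned to -0.044 with library size alone.

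The other genotypes with the tag gave a like picture. In Trim71KO cells of experiment 1, 88 members were lower and 3 higher in IP (background 65.2%, 35.2% lower and 30.0% higher), with a member median of -1.16. In those of experiment 2, 84 were lower and 4 higher (background 49.2%, 22.3% lower and 26.9% higher), with a member median of -0.49. In Ago2KO cells 59 were lower and 3 higher (background 28.2%, 8.46% lower and 19.7% higher), with a member median of -0.22. The 3 were Rps27 (0.36), Rps27rt (0.35) and Rpl7l1 (0.43).

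**Figure D2:**
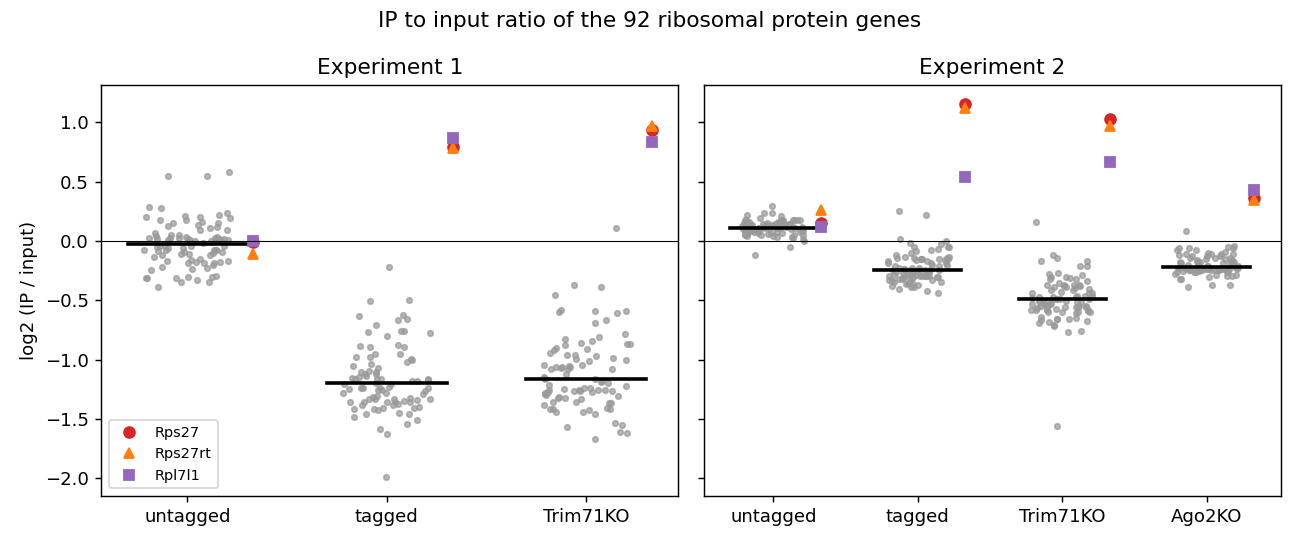
Log2 ratio of IP to input (y axis) of each of the 92 genes in each genotype (x axis), as fitted by edgeR, with the median as a black bar. Members centre near 0 in untagged cells and below 0 with the tag, while Rps27, Rps27rt and Rpl7l1 stay above 0 in all cells with the tag.

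Tag-specific enrichment sets the IP to input ratio of tagged cells against that of untagged cells. It does not remove RNA held by beads alone. Bcar1 took 9.64% to 12.1% of counts in untagged IP of experiment 1 and 2.01% to 2.73% in tagged IP. An RNA abundant on untagged beads can thus itself show a tag-specific fall. In experiment 2 Bcar1 took 2.76%, 0.613% and 2.06% in untagged IP and 2.12%, 1.60% and 1.09% in tagged IP, which overlapped. The part that RNA held by beads alone plays in the members' values was not tested in either experiment. In experiment 1, 87 of 92 members fell and 3 rose, where 56.9% of all genes were called, 28.8% lower and 28.1% higher. The median member change was -1.18, against -0.10 over all genes. In experiment 2, 68 members fell and 3 rose, where 27.7% of all genes were called, 8.77% lower and 18.9% higher. The median member change there was -0.36, against -0.03. Without tagged input replicate 2 of experiment 1, whose members stood highest, 89 members were called and the median was -1.01. Of the members that fell, 67 fell in both experiments, which is 77.0% of those lower in experiment 1 and 98.5% of those in experiment 2, and the same 3 rose in both. Of the 18553 genes tested in both experiments, 7.53% fell in both, which is 25.9% of those lower in experiment 1 and 85.5% of those in experiment 2. Another 19% rose in both, which is 67.2% of those higher in experiment 1 and 94.1% of those in experiment 2.

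Both subunits took part. In experiment 1, 52 of 55 large-subunit members fell and 1 rose (median -1.16), and 35 of 37 small-subunit members fell and 2 rose (median -1.24). In experiment 2 the counts were 41 and 1 (median -0.36) and 27 and 2 (median -0.36). The 76 core genes had medians of -1.17 and -0.36, with 74 and 60 lower and 1 higher.

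Rpl35, a protein near the exit of the nascent chain, had the lowest named change in experiment 1. Its levels in tagged cells were 537, 840 and 581 CPM in input and 202, 265 and 220 CPM in IP. In untagged cells they were 521, 515 and 519 CPM in input and 517, 479 and 506 CPM in IP. With the tag every IP library lay below every input library, and without it the 2 overlapped. The tag-specific change was -1.46 (SE 0.28, edgeR adjusted p = 8.76e-05). Rpl36a (-1.42) and the Rps12 copy Rps12l1 (-1.41) followed. In experiment 2 Rps29 (-0.53, SE 0.11, edgeR adjusted p = 0.000311) and Rpl39 (-0.50) were among the lowest of the members called.

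The P-stalk genes moved with the rest. Rplp0, the base of the stalk, changed by -0.92 and -0.39 in experiments 1 and 2, Rplp1 by -1.11 and -0.47, and Rplp2 by -1.26 and -0.45, and each call passed. Rps6, the subunit protein phosphorylated downstream of mTOR, changed by -1.25 and -0.28, both called. The ubiquitin fusion gene Rps27a changed by -1.30 and -0.37 and Rpl41 by -1.33 and -0.35, also called, though the experiment 2 call of Rpl41 did not hold in 5 of the 12 fits omitting one library, nor that of Rps6 in 3.

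A few core genes changed less than most or went uncalled in 1 experiment. Rpl3, a large-subunit protein that reaches toward the peptidyl transferase centre, had a change of -0.43 in experiment 1 (SE 0.14, edgeR adjusted p = 0.00951), lost in 1 of 12 fits omitting a library, and stood at 0.10 (SE 0.07, edgeR adjusted p = 0.36) in experiment 2. Its levels in tagged cells of experiment 2 were 1429, 1489 and 1466 CPM in input and 1803, 1768 and 1647 CPM in IP. Those in untagged cells were 1611, 1526 and 1538 CPM in input and 1705, 1654 and 1840 CPM in IP. IP lay above input in both genotypes. Rpl29 had a change of -0.20 in experiment 1, not called, and of -0.24 in experiment 2, called. The other member not called in experiment 1 was Rpl3l, at -1.13 with an SE of 0.63. In experiment 2, 21 members were not called, among them Rpl4, Rpl13a, Rpl30, Rps2, Rps3 and Rps10.

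**Figure D3:**
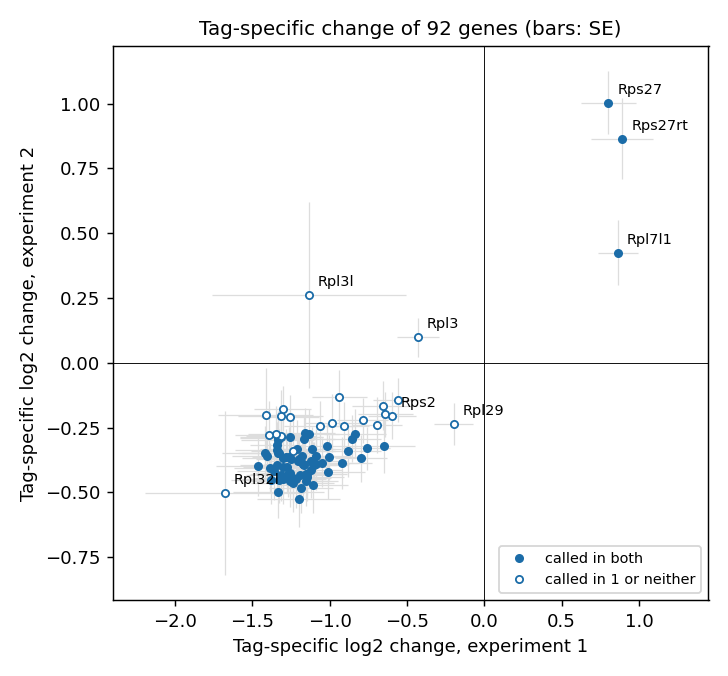
Tag-specific log2 change of each of the 92 genes in experiment 1 (x axis) and experiment 2 (y axis), with SEs as grey bars and filled points for genes called in both. Most genes lie below 0 in both, and Rps27, Rps27rt and Rpl7l1 lie above 0 in both.

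The order of members within the family was only loosely shared. Genes are not independent replicates, and across the 92 members the experiments had a rank correlation (Spearman) of 0.37 and a linear one (Pearson) of 0.82. The 5th to 95th percentiles of the changes were -1.40 to -0.50 in experiment 1 and -0.47 to -0.03 in experiment 2. Rps27, Rps27rt and Rpl7l1 lay apart, above 0 in both, and correlations without them are not given here. The experiments share no library. Spearman's rho of the change with gene length was 0.18 and 0.24 across members, and 0.26 and 0.20 across all genes tested.

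Most genes of several lists close to the family in function or size also had values below 0. Of 18 other mRNAs known for a TOP tract, such as those of translation elongation factors, 13 fell and 1 rose in experiment 1 and 12 fell and 2 rose in experiment 2 (medians -1.07 and -0.29). Respiratory chain genes, which are nuclear and likewise short and abundant, fell in 77 of 88 and 48 of 90 cases and rose in 0 and 1 (medians -1.03 and -0.31). Mitochondrial ribosome genes fell in 51 and 18 of 79 cases and rose in 13 and 10 (medians -0.71 and -0.17). Of 33 ribosome biogenesis genes, 24 and 10 fell and 4 and 3 rose (medians -0.65 and -0.18). These lists were not tested against each other, so nothing here marks the fall as particular to ribosomal protein genes.

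Rps27 was the core gene that went the other way. It encodes a zinc-finger protein of the small subunit. In experiment 1 its levels were 288, 410 and 329 CPM in tagged input and 660, 535 and 581 CPM in tagged IP. Untagged cells had 407, 419 and 400 CPM in input and 413, 398 and 405 CPM in IP. All tagged IP libraries were above all input libraries, while untagged IP and input overlapped. The tag-specific change was 0.80 (SE 0.18, edgeR adjusted p = 0.000475).

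In experiment 2 Rps27 stood at 298, 320 and 295 CPM in tagged input and 793, 686 and 560 CPM in tagged IP. Untagged cells had 313, 318 and 312 CPM in input and 355, 341 and 354 CPM in IP. The tagged IP libraries were again the highest, and the change was 1.00 (SE 0.12, edgeR adjusted p = 2.03e-07). IP over input was 2.23-fold in tagged and 1.11-fold in untagged cells. Rps27rt changed by 0.89 (SE 0.20) and 0.87 (SE 0.16), and the sum of both genes by 0.81 and 0.99.

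Its paralog Rps27l did not share this. Rps27l stood at 155, 201 and 175 CPM in tagged input and 114, 107 and 93.8 CPM in tagged IP of experiment 1, so IP lay below input. Untagged cells had 162, 160 and 155 CPM in input and 249, 238 and 228 CPM in IP. The tag-specific change was -1.34 (SE 0.17, edgeR adjusted p = 5.1e-07) in experiment 1 and -0.32 (SE 0.08, edgeR adjusted p = 0.00572) in experiment 2.

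Rpl7l1, a paralog of the large-subunit gene Rpl7, also rose. It stood at 267, 284 and 286 CPM in tagged input and 581, 457 and 490 CPM in tagged IP of experiment 1, with no overlap. Untagged cells had 266, 262 and 266 CPM in input and 262, 252 and 282 CPM in IP. The change was 0.86 (SE 0.13, edgeR adjusted p = 5.93e-06) in experiment 1 and 0.43 (SE 0.12, edgeR adjusted p = 0.0109) in experiment 2. The latter fell to 0.21 and was no longer called with library size alone, and was also lost without tagged IP replicate 1 (0.31). Rpl7 itself changed by -0.79, called, and -0.22, not called.

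**Figure D4:**
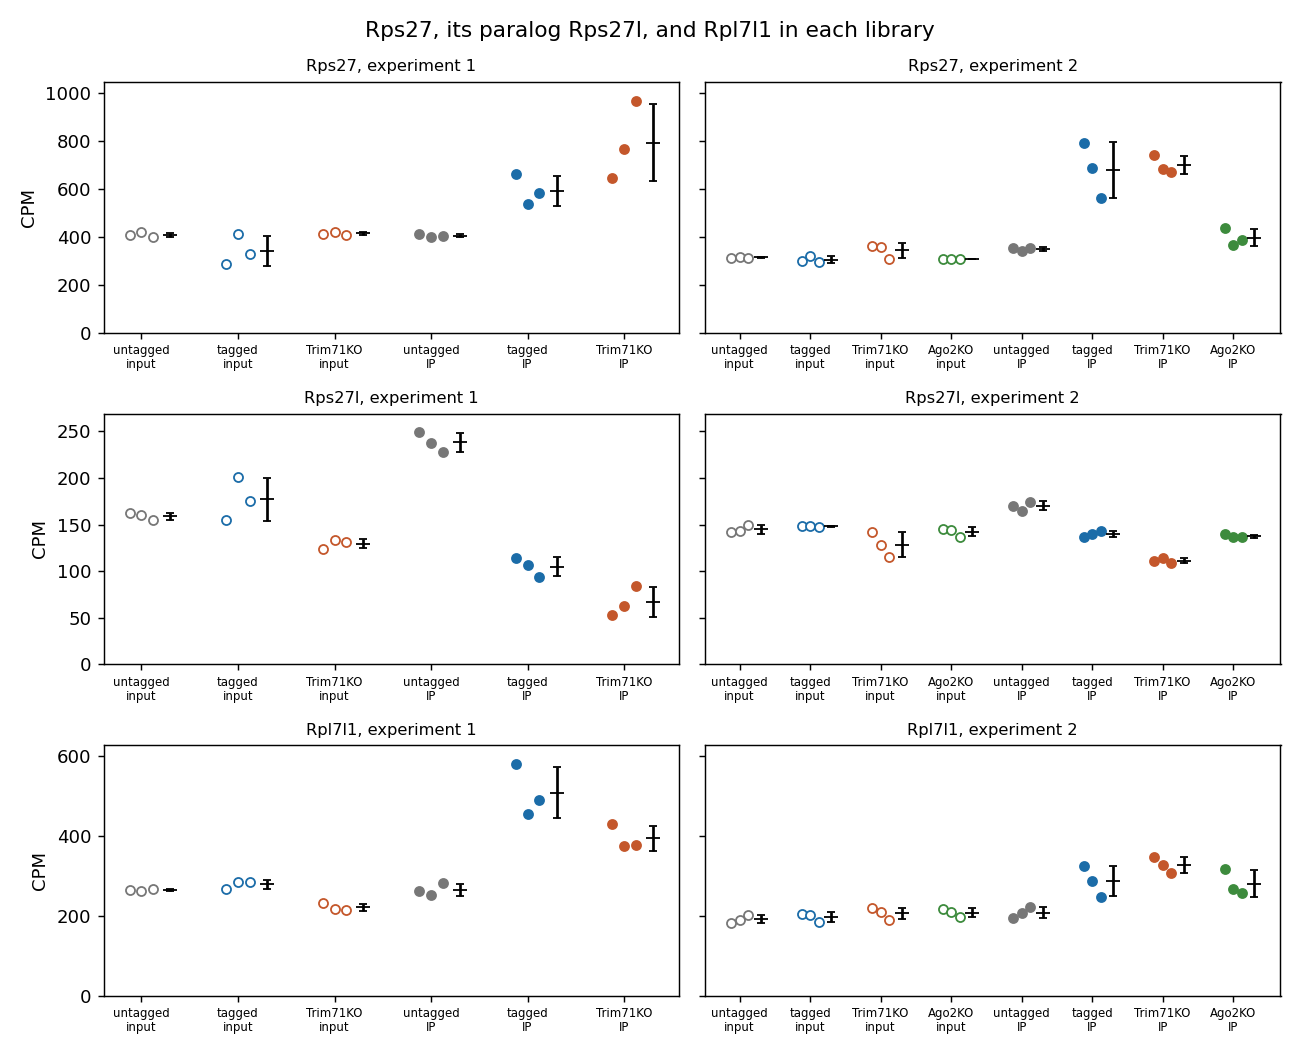
Level (y axis, CPM) of Rps27, Rps27l and Rpl7l1 in each library by group (x axis), with open points for input, filled points for IP, and the mean and SD of 3 libraries in black. Rps27 in Ago2KO IP sits at 396 CPM on average, below the 680 CPM of tagged IP, while Rpl7l1 overlaps between these groups.

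Other paralogs fell with their partners. In experiment 1 the tag-specific change was -1.18 for Rpl10 and -0.99 for Rpl10l, -1.28 for Rpl22 and -1.22 for Rpl22l1, and -1.42 for Rpl36a and -1.31 for Rpl36al. It was -1.33 for Rpl39 and -1.004 for Rpl39l, and -1.33 for Rps4x and -1.35 for Rps4l. All 10 were called. In experiment 2 the values of these pairs ran from -0.50 for Rpl39 to -0.23 for Rpl10l, and all but Rpl10l and Rps4l were called, with the call of Rpl36al lost in 11 of 12 fits that each omitted a library.

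Ago2-dependent enrichment sets the IP to input ratio of Ago2KO cells against that of tagged cells. Rps27 and Rps27rt fell, and they were the only members of 92 called (background 4.16%, 3.77% lower). The median member change was 0.04, against 0.0026 over all genes. Rps27 in Ago2KO cells stood at 309, 309 and 308 CPM in input and 436, 367 and 385 CPM in IP. The IP libraries lay below all 3 tagged IP libraries and above all untagged IP libraries. The change was -0.80 (SE 0.12, edgeR adjusted p = 0.000126), and it ran from -0.95 to -0.68 over all alternatives tried.

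Rps27rt fell by 0.78 (SE 0.16, edgeR adjusted p = 0.00263) and the sum of both genes by 0.80. IP over input of Rps27 remained above 1 in Ago2KO cells, at 1.28-fold (log2 0.36, SE 0.09, edgeR adjusted p = 0.002). Rpl7l1 had an Ago2-dependent change of -0.11 (SE 0.12, edgeR adjusted p = 0.812). Its Ago2KO levels were 218, 209 and 198 CPM in input and 319, 268 and 256 CPM in IP, and IP overlapped tagged IP.

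Trim71-dependent enrichment, the same comparison for Trim71KO cells, gave no call in experiment 1 by edgeR (background 3.74%, 0.272% higher and 3.47% lower) or DESeq2, with 1 member at an unadjusted p under 0.05. The median member change was 0.07, against -0.04 over all genes. It turned to -0.084 without Trim71KO IP replicate 3 and to -0.0058 without tagged input replicate 2, and was 0.35 without Trim71KO IP replicate 1 and 0.26 without tagged input replicate 1. Rps27 had a change of 0.15 (SE 0.18, edgeR adjusted p = 0.774) and Rpl7l1 of -0.03 (SE 0.13, edgeR adjusted p = 0.945).

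In experiment 2, 2 members were called lower by edgeR (background 1.49%, 0.753% higher and 0.738% lower). They were Rps10 (-0.39, SE 0.09, edgeR adjusted p = 0.0337) and the scarce Rpl3l (-1.78, SE 0.39, edgeR adjusted p = 0.0178), both named after their values were seen. Rps10 in Trim71KO cells stood at 684, 687 and 575 CPM in input and 532, 496 and 470 CPM in IP. In tagged cells it stood at 489, 564 and 505 CPM in input and 518, 521 and 533 CPM in IP. Its input was thus higher in Trim71KO cells, while its IP was near that of tagged cells. Rpl3l lay between 0.531 and 1.02 CPM in Trim71KO IP and between 1.46 and 2.02 CPM in tagged IP.

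Set directly against Ago2KO cells, Trim71KO cells had lower enrichment for 43 members and higher for 2, where 2.86% of all genes were lower and 8.94% higher. The 2 were Rps27 (0.67) and Rps27rt (0.62), and the median member difference was -0.29. This comparison was added after seeing the data, and its count ran from 10 without Trim71KO input replicate 2 to 69 without Trim71KO IP replicate 1.

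Rps27 had a Trim71-dependent change of -0.13 (SE 0.12, edgeR adjusted p = 0.67) in experiment 2, and Rpl7l1 one of 0.13 (SE 0.12, edgeR adjusted p = 0.694), each opposite in sign to experiment 1.

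Across the family the values of experiment 2 leaned low. The median was -0.25, against 0.0076 over all genes, with 89 of 92 changes below 0 and 64 at an unadjusted p under 0.05, all lower. The shares of all genes below 0 and at that unadjusted p are not given here, so these counts stand without a background. The count of calls varied with the fit. DESeq2 called 24, and edgeR called 15 with replicate number as a block within genotype, 5 with it within fraction, and 1 with library size alone or with only these groups. It was 0 without tagged input replicate 3, Trim71KO input replicate 1 or Trim71KO IP replicate 2. It reached 27 on omitting Trim71KO input replicate 3, 24 on omitting replicate 1 of Trim71KO IP and 15 on omitting replicate 1 of tagged IP. The shares of all genes called in these other fits are not given here, so these counts too stand without a background. Both experiments called 0 members in common, and 32 of 92 changes had the same sign. The matching shares over all genes are not given here. Among companion lists, respiratory chain genes had a median of -0.20, with 1 of 90 called, and the pseudogene rows of the family had a median of -0.28, with 3 of 128 called.

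In input RNA the median member change ran from -0.10 to 0.08 over the comparisons, though single members were called, core genes among them. Tagged against untagged input gave 1 call in experiment 1 (background 10.6%, 5.69% higher and 4.87% lower), with a median of 0.08, and 4 in experiment 2 (background 1.39%), with a median of -0.07. Rpl10l, a retrocopy of the X-linked Rpl10 known for its role in male germ cells, was the call shared by both. Its input levels in experiment 2 were 43.4, 43.3 and 46.7 CPM in untagged, 56.0, 62.1 and 58.8 CPM in tagged, 96.1, 94.5 and 81.1 CPM in Trim71KO and 73.2, 71.0 and 72.2 CPM in Ago2KO cells. The 4 genotypes did not overlap. The order in experiment 1 was the same for the genotypes it held, at 33.9 ± 1.69, 48.9 ± 8.14 and 63.8 ± 3.99 CPM (SD, n = 3) in untagged, tagged and Trim71KO cells.

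Rpl10l was 0.53 (experiment 1) and 0.41 (experiment 2) higher on the log2 scale in tagged than in untagged input. It was higher by 0.38 and 0.62 in Trim71KO than in tagged input, and by 0.29 in Ago2KO input. The 0.53 was not called without tagged input replicate 2, and the 0.38 and the 0.29 each lost their call in 4 of 6 fits that left out a library. Rpl10 itself was not called in any of these comparisons.

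Rpl39l, a paralog of Rpl39 that is also known from germ cells, was lower in Trim71KO input. In experiment 2 it stood at 68.3, 67.3 and 61.6 CPM in tagged and 43.4, 40.8 and 39.1 CPM in Trim71KO input. Experiment 1 had 50.5, 66.4 and 54.4 CPM in tagged and 36.0, 35.6 and 38.1 CPM in Trim71KO input. The groups did not overlap in either experiment. The changes of experiments 1 and 2 were -0.64 (SE 0.14, edgeR adjusted p = 0.0014) and -0.68 (SE 0.06, edgeR adjusted p = 4.29e-09). Against tagged input, Ago2KO input was higher by 0.23 (SE 0.06, edgeR adjusted p = 0.0197), a call lost in 3 of 6 fits that left out a library.

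**Figure D5:**
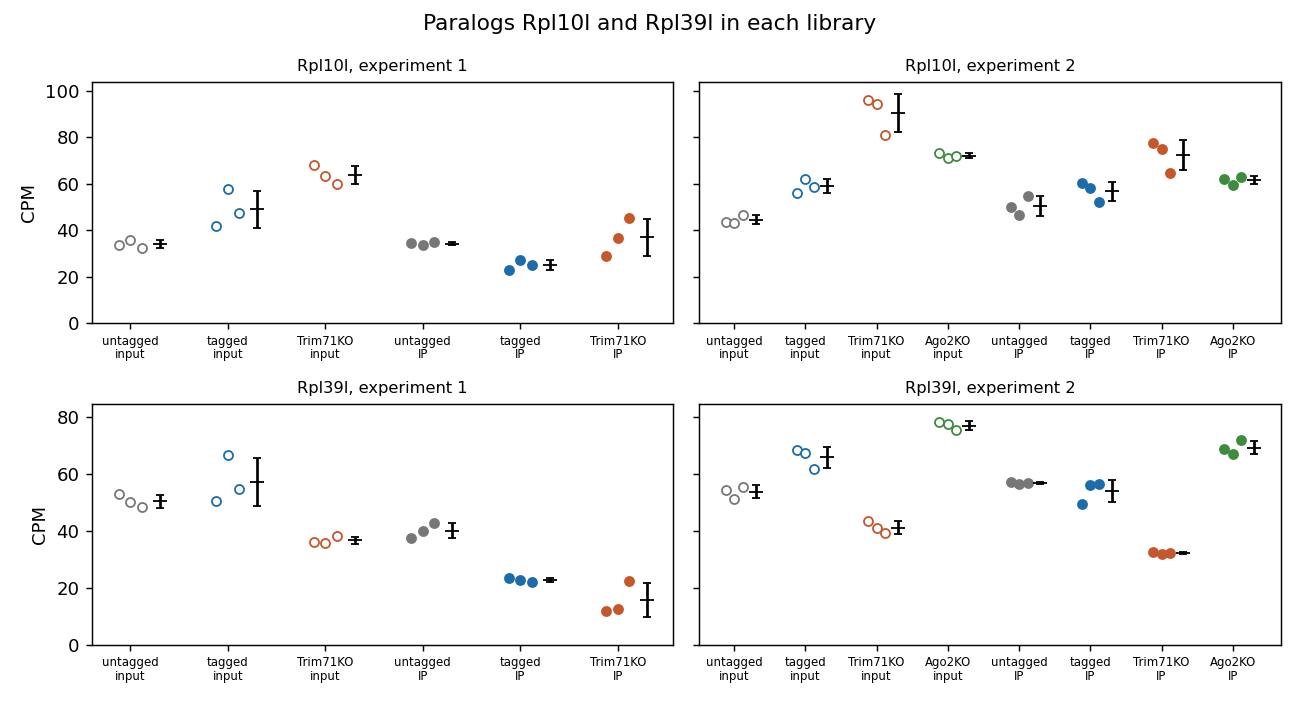
Level (y axis, CPM) of the paralogs Rpl10l and Rpl39l in each library by group (x axis), with open points for input, filled points for IP, and the mean and SD of 3 libraries in black. In Trim71KO input Rpl10l is the highest and Rpl39l the lowest of the input groups in both experiments.

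Trim71KO input against tagged input gave 6 calls in experiment 1 (background 34.0%, 16.5% higher and 17.4% lower), with a median of -0.10. It gave 16 in experiment 2 (background 27.2%, 13.5% higher and 13.7% lower), with a median of 0.08. The counts ran from 4 (without tagged input replicate 3 or Trim71KO input replicate 1 or 2) to 12 (without tagged input replicate 1) in experiment 1. In experiment 2 they were 8 without Trim71KO input replicate 2, 10 without tagged input replicate 1 or 3, and 27 without Trim71KO input replicate 3. Rpl39l and Rps27l were lower and Rpl10l higher in both experiments. Rps27l changed by -0.45 and -0.21. Markers of other cell types differed between these inputs too. The sum of the only 2 fibroblast markers measured was 25.2 to 27.0 CPM in tagged and 65.9 to 70.6 CPM in Trim71KO input of experiment 1. It was 37.5 to 39.2 and 51.7 to 54.8 CPM in experiment 2. Summed primitive endoderm markers were 60.7 to 78.1 and 13.7 to 16.1 CPM in experiment 1, and 22.5 to 24.5 and 7.99 to 10.1 CPM in experiment 2. Their part in the changes of Rpl39l, Rpl10l and Rps27l was not tested. In experiment 1 Rps15a (-0.55), Rpl36al (-0.49) and Rpl7l1 (-0.33) were also lower. In experiment 2 another 13 members were higher, where 13.5% of all genes were called higher. These members were led by Rps15 (0.35, SE 0.08, edgeR adjusted p = 0.00176) and Rps10 (0.32, SE 0.07, edgeR adjusted p = 0.000631), both of the small subunit. With library size alone the 16 calls became 10, 6 higher and 4 lower.

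Rps12, a small-subunit gene, was lower in tagged than in untagged input of experiment 2. It stood at 714, 616 and 649 CPM in untagged and 429, 479 and 446 CPM in tagged input, with no overlap. The change was -0.55 (SE 0.08, edgeR adjusted p = 0.000135). Its copy Rps12l1, annotated as a pseudogene and lying within the span of Nipa1, changed by -0.63, and 15 pseudogene rows named for Rps12 had a median of -0.76, with 2 called lower. In experiment 1 Rps12 stood at 636, 647 and 659 CPM in untagged and 453, 716 and 540 CPM in tagged input, which overlapped. Trim71KO input of experiment 1, at 461, 489 and 440 CPM, lay below all untagged input. In experiment 2 Rps12 averaged 524 ± 64.8 CPM in Trim71KO, 483 ± 5.75 in Ago2KO and 660 ± 50.0 in untagged input (SD, n = 3). Trim71KO and Ago2KO input were not tested against untagged input. Ago2KO input gave 2 calls against tagged input (background 6.96%, 4.38% higher and 2.57% lower), Rpl10l and Rpl39l.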

How the data were processed

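Read counts per gene were deposited by the authors in 2 tables, 1 per experiment, each also holding RPKM values per the file headers, which rest on the authors' gene lengths. Per the submitters' processing notes, bcl2fastq 2.20 and STAR 2.7.3a were used with GRCm38/mm10. The counting tool and its handling of multiply mapped reads are not given in the sources used here. Library size implied by the RPKM values was 0.828 to 1.14 times the column total.

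Counts were fitted in edgeR 4.0.16 (R 4.3.3, limma 3.58.1) with TMM scaling, filterByExpr and the quasi-likelihood F test, all groups of an experiment in 1 fit, and Benjamini-Hochberg adjustment over all 18772 or 19778 genes tested. Levels are CPM, counts scaled to 1000000 of the TMM-adjusted library size. Enrichment comparisons are interactions of fraction and genotype. The scripts were tested on simulated data. Between replicates the chi-square per gene over genes with at least 50 counts was at least 2.87 in all 42 pairs, so no library was counted as a duplicate.

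Named genes were up to 3 members each way per comparison, called, with a mean log2 CPM of at least 2 and no overlap, plus the P-stalk genes, 8 pairs of a core gene and its paralog, Rps6, Rps27a, Rpl41 and the 3 highest and 3 lowest per length. Members and lists were chosen with earlier results of these data known. The comparison of Trim71KO with Ago2KO, the sum of Rps27 and Rps27rt, and the median without members that have pseudogene rows were added after seeing the data. DESeq2 1.42.0, library size alone, other size factors, no filter, replicate blocks and leaving out each library were alternatives. The share of all genes called is given for the main fit only. Some items that the naming rule or the lists would include are not reported here.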

Additional observations from a re-analysis of the deposited data

Results flagged for a closer look

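Enrichment in Trim71KO and Ago2KO cells of experiment 2 differed for 45 of 92 members in a direct interaction test, a comparison added after seeing the data. Of these, 43 were lower in Trim71KO and 2 higher, where 11.8% of all genes were called (2.86% lower and 8.94% higher), and the median member difference was -0.29. The count ran from 10 without Trim71KO input replicate 2 to 69 without Trim71KO IP replicate 1. Rps27 was higher in Trim71KO by 0.67 (SE 0.12, edgeR adjusted p = 0.000391) and Rps27rt by 0.62 (SE 0.16, edgeR adjusted p = 0.00854). Rplp2 differed by -0.50 (SE 0.10, edgeR adjusted p = 0.00125), Rps12 by -0.47 (SE 0.11, edgeR adjusted p = 0.00461) and Rps29 by -0.44 (SE 0.11, edgeR adjusted p = 0.00538). Both enrichments use the same tagged libraries, which cancel in the direct test.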

How the results depend on the processing

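Among alternative values of counts and medians, 426 kept their direction and side of the threshold, 20 became stronger, 24 weaker and 4 moved. With library size alone, IP against input in untagged cells of experiment 1 gave 59 calls and a median of -0.42, and there Rpl7 (-0.37), Rpl7l1 (-0.39), Rpl10 (-0.37), Rpl10l (-0.38) and Rpl22 (-0.36) reversed. In the same setting the median was -1.55 for IP against input in tagged cells of experiment 1, -0.53 for it in experiment 2, where Rpl3 reversed to -0.044, and -0.56 for tag-specific enrichment in experiment 2. Calls there were 1 for Trim71-dependent enrichment in experiment 2, 10 for Trim71KO input in experiment 2 and 1 for Ago2KO input. With only the groups compared, calls were 41 for untagged IP in experiment 1, 1 for untagged IP and 1 for Trim71-dependent enrichment in experiment 2, and 19 for Trim71KO against Ago2KO. DESeq2 called 2 in tagged against untagged input of experiment 1, 24 in Trim71-dependent enrichment and 4 in untagged IP of experiment 2. With no filter, untagged IP of experiment 2 gave 1 call. The shares of all genes called in these alternative fits are not given here, so the counts of members stand without a background. The cause of these shifts was not tested.

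Replicate numbers were not taken to pair libraries, since no pair of groups had all 3 correlations over 0.1 (the closest had 0.0980, 0.174 and 0.154). In experiment 2, IP groups with the tag had correlations above 0 throughout, such as 0.416, 0.0388 and 0.260 for tagged with Ago2KO. Tnrc6a took 2.03%, 1.56% and 1.22% of counts in tagged IP replicates 1 to 3. It took 1.92%, 1.59% and 1.22% in Trim71KO IP and 2.83%, 1.65% and 1.42% in Ago2KO IP. Whether replicate numbers mark shared handling was not tested. With a replicate block within genotype, Trim71-dependent enrichment in experiment 2 gave 15 calls and untagged IP 3, and with a block within fraction the former gave 5.

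Leaving out 1 library at a time, calls ran from 89 to 90 and 56 to 76 for tag-specific enrichment in experiments 1 and 2, 0 to 1 and 0 to 27 for Trim71-dependent, 2 to 2 for Ago2-dependent, 0 to 3 and 3 to 4 for tagged input, 4 to 12 and 8 to 27 for Trim71KO input, 0 to 2 for Ago2KO input, 3 to 4 and 0 to 1 for untagged IP, 90 to 91 and 49 to 64 for tagged IP, and 10 to 69 for Trim71KO against Ago2KO. Rpl3l, under 3 CPM, is limited by depth.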
